A study of Mus musculus with 6 samples.

Results

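Platelets carry surface receptors for ADP, ATP, thrombin and thromboxane A2, and the genes of 8 such proteins were followed here: P2rx1, P2ry1, P2ry12, F2r, F2rl2, F2rl3, Tbxa2r and Trpc6. They were taken from a list of purinergic, protease-activated and thromboxane receptors, with the channel gene Trpc6 added, among 53801 genes in the deposited count table. Of the 8, 7 passed the filter on low counts, as did 13631 genes in all, and P2ry12 did not. RNA was sequenced from mouse fetal liver cells at day E12.5-13.5 post coitum. The mice were of a B6J.129(Cg) background with the Gt(ROSA)26Sortm1.1 allele (CAG-cas9*,-EGFP), a strain with the suffix Fezh/J, so that the cells carry Cas9 and EGFP at the Rosa26 locus. All 6 libraries share the guide sgGata1, the microRNA transgene miR-125b and doxycycline at 1 μg/mL for 48 h. The sample titles call these cells Gata1s, a shortened GATA1, the transcription factor of red cells and megakaryocytes. The doxycycline-inducible transgene was LUC in 3 libraries and Arid3a-FLAG, a tagged DNA-binding protein, in 3 libraries. The labels do not say whether the libraries of a group came from separate animals or cultures, and no group without the guide or without miR-125b was analysed here.

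Platelet activation runs through a small set of receptors that release each other's ligands. ADP acts on P2RY1, which couples to Gq and calcium, and on P2RY12, which couples to Gi and lowers cyclic AMP, while ATP opens the cation channel P2RX1. Thrombin cuts the outer end of protease-activated receptors. Human platelets signal through PAR1 (F2r) and PAR4 (F2rl3). In mouse platelets PAR4 signals, PAR3 (F2rl2) helps thrombin to reach it, and PAR1 is held to be absent. The thromboxane receptor (Tbxa2r) couples to Gq and G12/13, and TRPC6 is a cation channel opened by diacylglycerol.

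Total counts ran from 15728150 to 18249053 per library. Reads of the construct numbered 3348, 3044 and 2758 with Arid3a-FLAG and 0 in each LUC library. The endogenous Arid3a gene differed by -0.01 on the log2 scale (adjusted p = 0.977). LUC library 2 stood apart on the second principal component, which held 24.0% of the variance. Of 20 megakaryocyte and platelet markers, all 20 were tested, 7 were higher and 1 was lower with Arid3a-FLAG. Of all tested genes, 3.43% were higher and 3.87% were lower. The 7 rises ran from 1.54-fold (Gp5) to 5.99-fold (Thbs1), and Ppbp was 2.02-fold lower. The 20 markers summed to 8063 to 9834 CPM with LUC and 9210 to 9850 CPM with Arid3a-FLAG. CPM are counts per 1000000 on TMM-scaled library sizes. Pf4 held the largest part of the sum (mean 3938 CPM with LUC, 3143 with Arid3a-FLAG). The sum therefore says little about markers of lower level, and the part of these markers in the receptor values was not tested. In bulk RNA, fewer cells of a type and less RNA per cell cannot be told apart.

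With Arid3a-FLAG the thrombin receptor gene F2r, the ATP channel gene P2rx1 and the cation channel gene Trpc6 rose, and the ADP receptor gene P2ry1 fell. F2r rose 1.62-fold, Trpc6 1.60-fold and P2rx1 1.40-fold, and P2ry1 was 1.48-fold lower. F2rl2, F2rl3 and Tbxa2r did not pass the threshold of an adjusted p under 0.05. Thus 3 of 7 tested genes were higher, against 3.43% of all tested genes, and 1 of 7 was lower, against 3.87%. In either direction 7.29% of all tested genes passed. The median log2 fold change was 0.48 over the 7 genes and -0.03 over all 13631. It was 0.41 over the 20 megakaryocyte and platelet markers and 0.43 over the 11 tested erythroid markers. Over the other marker lists it ran from -2.06 (lymphoid) to 0.06 (monocyte, macrophage and microglia). The 3 LUC and 3 Arid3a-FLAG libraries did not overlap for 6 of the 7 genes (5 higher, 1 lower), and for 33.1% of all tested genes. The counts depended on single Arid3a-FLAG libraries: 1 receptor gene was higher without library 1 and 0 without library 2. Each of the 7 fold changes kept its direction in all 6 fits that left out 1 library. Over all genes, 115 were higher without Arid3a-FLAG library 1 and 131 without library 2, against 467 with the 6 libraries. Without LUC library 2, the library that stood apart, the log2 fold changes were 0.71 for F2r, 0.67 for Trpc6 and 0.48 for P2rx1 (adjusted p = 0.00123, 0.00975 and 0.000932), and 0.18 for F2rl2 and 0.65 for Tbxa2r (adjusted p = 0.134 and 0.145).

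**Figure D1:**
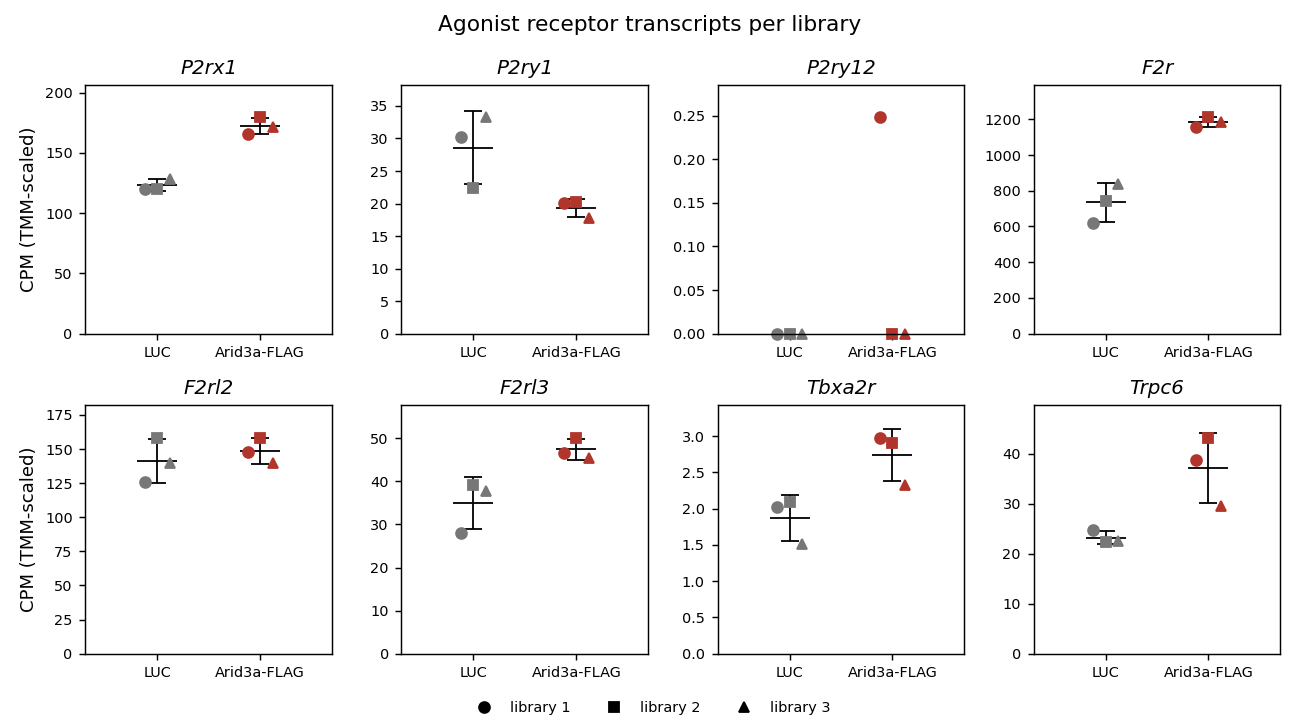
Level of each gene in CPM (counts scaled to a common library size by TMM, vertical axis from 0) in the 3 LUC libraries (grey) and the 3 Arid3a-FLAG libraries (red), with the mean and SD as bars except for P2ry12. F2r runs from 620.2 to 838 CPM with LUC and from 1157 to 1211 CPM with Arid3a-FLAG, while P2ry12 has reads in 1 library.

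The promoters of the 4 genes that passed are shown because these genes moved in the same comparison, 3 up and 1 down. Each window covers 250 bases before to 50 bases after the RefSeq start on GRCm38.p6, written 5′ to 3′ on the strand of the gene. The windows are chr13:95618417-95618716 for F2r (minus strand), chr11:72998895-72999194 for P2rx1 (plus), chr9:8543892-8544191 for Trpc6 (plus) and chr3:61002535-61002834 for P2ry1 (plus). Capitals mark 3 kinds of match on either strand. GATA letters are AGATAA and AGATAG and their forms with a leading T, TGATAA and TGATAG. RUNX letters are TGTGGT and the form TGCGGT, and ETS letters are GGAAGT and the form GGAAGC.
F2r: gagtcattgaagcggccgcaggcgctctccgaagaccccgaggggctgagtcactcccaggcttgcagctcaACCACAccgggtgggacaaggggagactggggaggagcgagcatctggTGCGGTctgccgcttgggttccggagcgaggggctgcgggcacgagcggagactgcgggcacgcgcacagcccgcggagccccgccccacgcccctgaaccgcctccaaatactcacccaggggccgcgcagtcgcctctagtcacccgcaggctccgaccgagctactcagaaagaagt
P2rx1: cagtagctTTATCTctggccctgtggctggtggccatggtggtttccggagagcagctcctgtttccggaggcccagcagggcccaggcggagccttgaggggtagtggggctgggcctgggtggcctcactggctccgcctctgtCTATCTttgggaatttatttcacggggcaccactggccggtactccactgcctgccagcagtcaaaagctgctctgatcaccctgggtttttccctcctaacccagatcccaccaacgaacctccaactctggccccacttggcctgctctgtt
Trpc6: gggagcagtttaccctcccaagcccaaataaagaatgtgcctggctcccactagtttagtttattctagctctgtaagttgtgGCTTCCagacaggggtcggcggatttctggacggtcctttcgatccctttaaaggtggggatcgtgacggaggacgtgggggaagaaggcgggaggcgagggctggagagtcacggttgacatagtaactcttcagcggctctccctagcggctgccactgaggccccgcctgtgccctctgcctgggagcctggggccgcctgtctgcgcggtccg
P2ry1: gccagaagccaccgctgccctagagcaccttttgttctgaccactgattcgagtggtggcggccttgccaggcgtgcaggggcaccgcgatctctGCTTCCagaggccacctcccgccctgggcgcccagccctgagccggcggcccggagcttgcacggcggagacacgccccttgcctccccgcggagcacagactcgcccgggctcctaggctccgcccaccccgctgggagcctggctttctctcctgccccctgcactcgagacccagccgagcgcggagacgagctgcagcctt

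The 4 windows differed in the letters they held. The P2rx1 window had 2 GATA matches, whose first bases lie at -242 and -104 relative to the RefSeq start (counted as 0), and the other 3 windows had none. F2r had 2 RUNX matches, at -178 and -130, and Trpc6 and P2ry1 had 1 ETS match each, at -167 and -155. Over 32851 mouse windows of the same length, 29.8% held a GATA match, 22.4% a RUNX match and 43.6% an ETS match. Among the remaining genes, the F2rl3 window held 2 GATA matches and F2rl2 held 1. An ETS match was also in the windows of F2rl2 (-217), F2rl3 (-124) and P2ry12 (-51), and in 1 window of Tbxa2r (-183). These genes had no RUNX match. The windows of F2r and P2ry1 were rich in G and C, at 68.7% and 70.7%, with 28 and 25 CG pairs, against 60.7% and 7 pairs for P2rx1. An AT-rich motif linked to ARID3A (ATTAAA or the form AATTAA on either strand, which can overlap each other) was in 18.9% of all windows and in none of the 9 windows of the 8 genes. E-box letters (CAGCTG, the same on both strands, or the form CATCTG) were in 30.6% of all windows, and in 1 window each of F2r, F2rl3, P2ry12 and Tbxa2r.

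Among the thrombin receptors, F2r (ENSMUSG00000048376, chromosome 13, 95601803 to 95618487, minus strand, mm10) had the highest level and the largest rise. It encodes PAR1. Its level was 620.2, 744 and 838 CPM in LUC libraries 1 to 3, against 1157, 1211 and 1187 CPM in Arid3a-FLAG libraries 1 to 3. Every Arid3a-FLAG library lay above every LUC library, and the LUC libraries were spread more widely (734 ± 109 against 1185 ± 26.9 CPM, SD, n = 3). The log2 fold change was 0.69 (SE 0.12, 95% interval 0.42 to 0.96, adjusted p = 0.0093). Leaving out Arid3a-FLAG library 1 (adjusted p = 0.0562) or library 2 (0.0565) ended the call, with log2 fold changes of 0.71 and 0.68.

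F2rl3 (ENSMUSG00000050147, chromosome 8, 72761880 to 72763874, plus strand) encodes PAR4, the thrombin receptor that signals in mouse platelets. It stood at 28.1, 39.2 and 37.8 CPM in LUC libraries and reached 46.6, 50.2 and 45.4 CPM in Arid3a-FLAG libraries. The groups did not overlap, and LUC library 1 was the lowest. On the log2 scale the difference was 0.44 (SE 0.13, 95% interval 0.15 to 0.72), which did not pass (adjusted p = 0.0666). Without LUC library 2 it was 0.54 and passed (adjusted p = 0.0107), and DESeq2 also called it (adjusted p = 0.0249).

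F2rl2 (ENSMUSG00000021675, chromosome 13, 95696853 to 95702739, plus strand) encodes PAR3, the thrombin cofactor receptor. Its levels were 126, 158 and 139.7 CPM (LUC), against 148, 158 and 139.4 CPM (Arid3a-FLAG). The groups overlapped, with the highest LUC library, library 2, beside the highest Arid3a-FLAG library. The log2 fold change was 0.07 (SE 0.10, adjusted p = 0.696), and its 95% interval of -0.15 to 0.30 leaves out a rise of the size seen for F2r. Whether F2r and F2rl2 differed in their response was not tested. The gene lies on the opposite strand within Iqgap2, a scaffold protein gene, and shares 0 exon bases with it. The 2 groups had 212.5 ± 10.4 and 197 ± 7.85 CPM of Iqgap2, LUC first (log2 fold change -0.11, adjusted p = 0.456). The strand setting of the counting, not given in the sources used here, decides whether the genes share reads: without strand, reads of unspliced Iqgap2 RNA and of F2rl2 cannot be told apart. F2rl1, which encodes PAR2 and is the nearest protein-coding neighbour of F2r on the other side, had 0 counts in all 6 libraries.

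The 2 nucleotide receptor genes that passed moved in opposite directions. P2rx1 (ENSMUSG00000020787, chromosome 11, 72999103 to 73015200, plus strand), the ATP-gated channel, stood at 120.4, 120.5 and 129 CPM in the LUC libraries. The Arid3a-FLAG libraries had 166, 179.6 and 172 CPM. Libraries within a group lay close together and the groups were apart (123.2 ± 4.82 against 172 ± 6.90 CPM, SD, n = 3). For P2rx1 the log2 fold change was 0.48 (SE 0.08, 95% interval 0.30 to 0.67, adjusted p = 0.00854). On leaving out Arid3a-FLAG library 2 the call was lost, with a log2 fold change of 0.46 and an adjusted p of 0.0705.

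P2ry1 (ENSMUSG00000027765, chromosome 3, 61002795 to 61008982, plus strand), the Gq-coupled ADP receptor, stood at 30.2, 22.4 and 33.2 CPM with LUC. With Arid3a-FLAG it stood at 20.1, 20.2 and 17.7 CPM. The groups did not overlap, but LUC library 2 lay close to the Arid3a-FLAG libraries. The log2 fold change was -0.57 (SE 0.15, 95% interval -0.90 to -0.24, adjusted p = 0.0455). This fall was the least stable of the 4 calls: it was lost in 5 of 6 fits with 1 library left out. The adjusted p was 0.147 without LUC library 1, 0.128 without LUC library 3, and 0.142, 0.137 and 0.147 without Arid3a-FLAG libraries 1, 2 and 3. Without LUC library 2 the log2 fold change was -0.70 and the call held (adjusted p = 0.00147). The antisense gene Gm37035 shares 992 of the 4291 exon bases of P2ry1 and had 18 counts over the 6 libraries. If reads were counted without strand, reads of the 2 genes in the shared bases cannot be told apart. The effect of this overlap on the P2ry1 level was not tested.

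P2ry12 (ENSMUSG00000036353, chromosome 3, 59216272 to 59262871, minus strand), the Gi-coupled ADP receptor and target of the thienopyridine drugs, was at or near 0. Its counts were 0 in each LUC library and, with Arid3a-FLAG, 4, 0 and 0. A count of 0 allows up to 3 counts, or 0.162 to 0.196 CPM in the LUC libraries, for counting error alone, so no fold change is given. P2ry12 lies on the opposite strand within Med12l, a Mediator subunit gene that averaged 88.8 ± 13.8 CPM (LUC) and 144 ± 5.39 CPM (Arid3a-FLAG). Med12l rose by 0.70 on the log2 scale (adjusted p = 0.00644), and 9 exon bases are shared between the genes. The neighbouring nucleotide receptor gene P2ry13, also within Med12l on the opposite strand, had 13 counts over the 6 libraries. If reads were counted without strand, unspliced Med12l RNA cannot be told apart from that of P2ry12 or P2ry13.

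Tbxa2r (ENSMUSG00000034881, chromosome 10, 81328731 to 81335172, plus strand), the thromboxane receptor, was low. Its 2.02, 2.09 and 1.51 CPM with LUC rested on 35, 32 and 28 counts, and its 2.98, 2.90 and 2.32 CPM with Arid3a-FLAG on 48, 50 and 37 counts. Every Arid3a-FLAG library lay above every LUC library. The log2 fold change of 0.55 (SE 0.26, 95% interval -0.02 to 1.12) did not pass (adjusted p = 0.207), and the interval holds both no change and a rise as large as that of F2r.

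Trpc6 (ENSMUSG00000031997, chromosome 9, 8544142 to 8680741, plus strand), the diacylglycerol-gated cation channel, stood at 24.7, 22.4 and 22.6 CPM with LUC. Arid3a-FLAG libraries 1 to 3 had 38.8, 43.2 and 29.5 CPM. The groups did not overlap, and Arid3a-FLAG library 3 was nearest to the LUC libraries. For Trpc6 the log2 fold change was 0.68 (SE 0.14, 95% interval 0.37 to 0.99, adjusted p = 0.0183). It did not pass when Arid3a-FLAG library 1 (0.65, adjusted p = 0.0941) or library 2 (0.56, adjusted p = 0.0949) was left out.

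**Figure D2:**
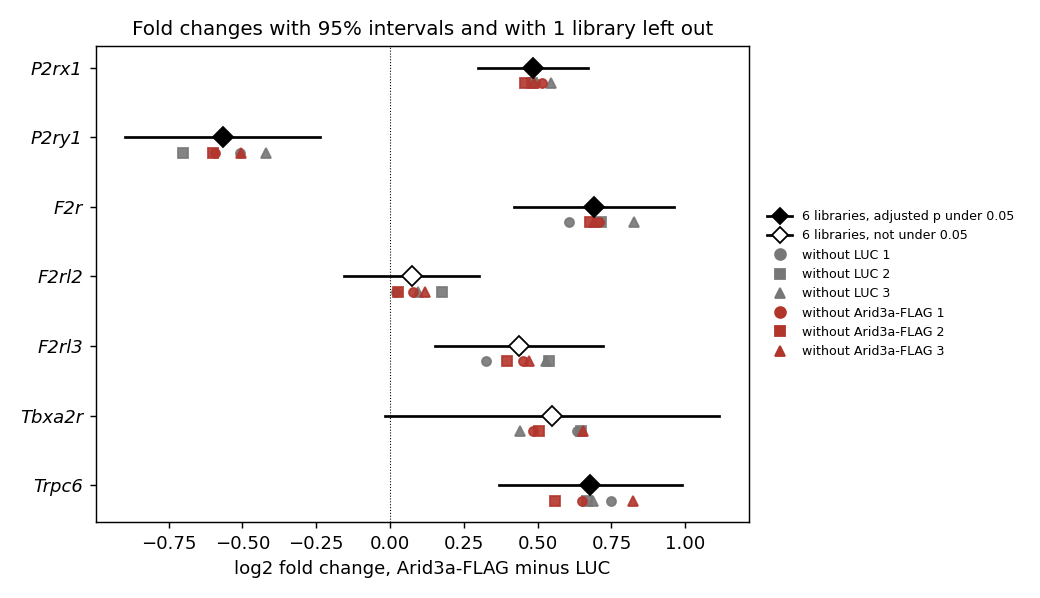
Log2 fold change of each of the 7 tested genes (horizontal axis, Arid3a-FLAG minus LUC) with its 95% interval, filled where the adjusted p was under 0.05, and below it the 6 values with 1 library left out. P2ry1 lies below 0 throughout, from -0.70 to -0.42, and F2rl2 stays nearest to 0, from 0.02 to 0.18.

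Levels of different genes were compared as CPM per kb of exon. In the LUC libraries F2r was highest at 220.1 ± 32.8 CPM per kb (SD, n = 3), above 98.4% of all tested genes. F2rl2 followed at 56.4 ± 6.44, P2rx1 at 46.9 ± 1.84, F2rl3 at 17.6 ± 3.03, P2ry1 at 6.67 ± 1.31, Trpc6 at 4.58 ± 0.250 and Tbxa2r at 0.977 ± 0.165 CPM per kb. P2ry12 was last, at 0. No neighbours in this order overlapped in the LUC libraries, although F2rl2 (lowest 50.3) and P2rx1 (highest 49.1) came close.

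With Arid3a-FLAG the order changed in 2 places. P2rx1, at 65.7 ± 2.63 CPM per kb, stood above F2rl2, at 59.4 ± 3.81, but their libraries overlapped. Trpc6, at 7.34 ± 1.38 CPM per kb, stood above P2ry1, at 4.51 ± 0.331, without overlap. With the longest transcript as the length, Trpc6 stood at 7.12 and P2ry1 at 7.36 CPM per kb with LUC, closer than the spread of P2ry1 between libraries. F2r made up 60.1% to 64.8% of the summed CPM per kb of the 8 genes in the LUC libraries and 67.9% to 69.6% in the Arid3a-FLAG libraries. F2rl2 made up 14.4% to 17.4% and 10.9% to 11.8%.

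**Figure D3:**
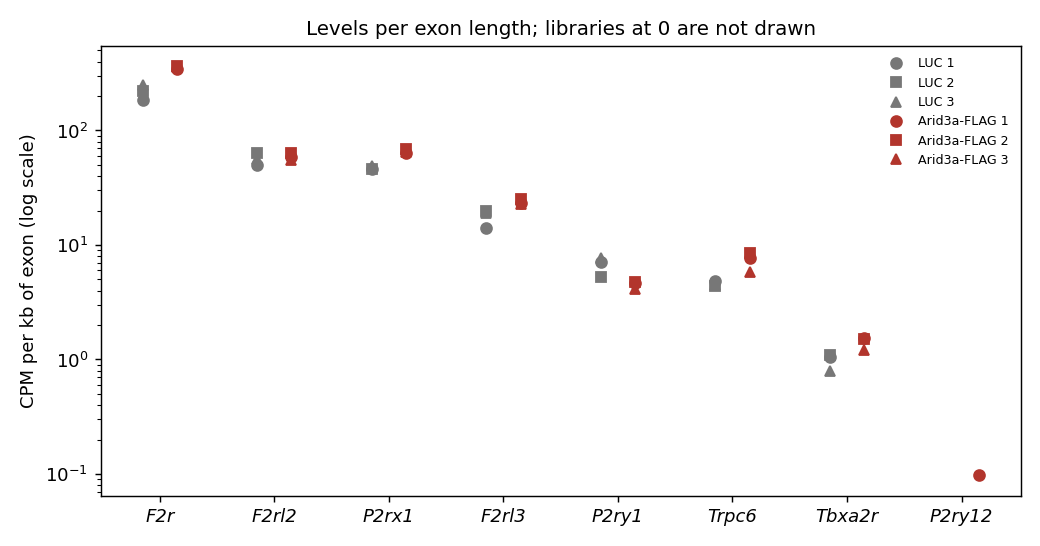
Level per exon length (CPM per kb, log axis) of the 8 genes in each LUC library (grey) and Arid3a-FLAG library (red), ordered by the LUC mean; libraries at 0 are not drawn. F2r lies above all others in every library, and Trpc6 and P2ry1 change places between the groups.

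The libraries of a group differed for some receptors more than for others. Relative to the mean of the other 2 LUC libraries, on the log2 CPM scale, LUC library 2 was lower for P2ry1 by a difference of -0.50 and higher for F2rl3 (0.27) and F2rl2 (0.25). For P2rx1 (-0.05), F2r (0.04) and Trpc6 (-0.08) it lay close to them. LUC library 1 was low for F2rl3 (-0.45) and F2r (-0.35), and LUC library 3 for Tbxa2r (-0.42). Measured the same way, Arid3a-FLAG library 3 was low for Trpc6 (-0.47) and Tbxa2r (-0.33). Across the 6 libraries the log2 CPM of F2r and P2rx1 had a Pearson r of 0.965, and that of F2r and F2rl3 0.938, while P2ry1 ran against F2r (-0.76). These 6 points fall into the 2 groups, so the values describe the group difference as much as the libraries.

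Among 9549 other genes that averaged at least 5 CPM (9550 for Tbxa2r), those most like each receptor over the 6 libraries were found by Pearson's r of log2 CPM. For F2r they were Slc6a4, the serotonin transporter (r = 0.999), Fech, the last enzyme of haem synthesis (0.998), and Fkbp9 (0.997). For P2rx1 they were Rab3gap1 (0.998), Vcl, the adhesion protein vinculin (0.994), and Slc44a1, a choline transporter (0.993). For Trpc6 they were Recql, a DNA helicase, Slc35e3 and Smarcc1, a chromatin remodelling subunit (0.990 to 0.997). For P2ry1 they were Nck2, an adaptor protein, Dmwd and Cep85l (0.973 to 0.995). For F2rl3 they were Tspyl4, Rbpms2 and Ppp2r1b (0.993 to 0.994), and for F2rl2 Pim2, Ctps and Dtwd2 (0.986 to 0.988). For Tbxa2r they were Noc3l, Nagpa and Tfdp1 (0.980 to 0.982). All were picked as the highest values of a wide search over 6 libraries in 2 groups. Values near 1 are therefore no measure of shared function, which was not tested.

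The genes nearest to the receptors, some of them far off, gave a mixed picture. Atp2a3, the calcium pump of platelet stores, lies 6059 bases from P2rx1 and stood at 454 ± 64.9 CPM (LUC) and 607 ± 33.0 CPM (Arid3a-FLAG, log2 fold change 0.42, adjusted p = 0.0564). Camkk1, a calcium-dependent kinase gene on its other side, had a log2 fold change of 0.54 (adjusted p = 0.0567). Sv2c, a synaptic vesicle protein gene 251855 bases from F2rl2, fell by 0.91 (adjusted p = 0.0266). That call was lost on leaving out LUC 1, LUC 3, Arid3a-FLAG 1 or Arid3a-FLAG 2, with adjusted p-values up to 0.125. Of the other neighbours, Mbnl1, Rap2b, Igsf10, Sin3b, Cactin, Gipc3 and Cep126 were tested and did not pass. Pgr and Gm32014 were too low to test. Mbnl1 and Rap2b lie 373045 and 352656 bases from P2ry1, and Cep126 and Pgr 409848 and 219092 bases from Trpc6.

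Over all tested genes, 3.43% rose and 3.87% fell, the background for this list and those that follow. In the list of other nucleotide and adenosine receptors and their relatives, P2ry10, Gpr34 and P2rx4 fell. P2ry10 and Gpr34 are listed as relatives of the nucleotide receptors, and their ligands were not examined. Of the 20 genes of this list, 13 were tested, 3 fell and 10 did not pass (median log2 fold change -0.15, against -0.03 for all genes). In the edgeR test of the 6 libraries 0 rose, with 1 higher at an unadjusted p under 0.05. However, 1 was called higher by DESeq2, by limma-voom and by edgeR with RLE factors, no filter, at least 5 CPM in 3 libraries, the replicate block, the 20 most abundant genes left out or the newer quasi-likelihood option, and without LUC library 2. P2ry10 fell from 2.38 ± 0.0374 to 0.740 ± 0.330 CPM (-1.69, adjusted p = 0.0186). Gpr34 fell from 6.98 ± 0.781 to 3.71 ± 0.974 CPM (-0.91, adjusted p = 0.0324), and the ATP channel P2rx4 fell from 20.9 ± 2.80 to 14.3 ± 1.98 CPM (-0.55, adjusted p = 0.0486). On leaving out LUC 1, Arid3a-FLAG 1 or Arid3a-FLAG 2 the number of falls was 0, and on leaving out LUC 3 it was 1. P2ry14, the receptor for UDP-glucose, stood at 9.93 ± 2.06 and 15.2 ± 1.22 CPM (0.62, adjusted p = 0.0504).

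Among the other protease-activated and prostanoid receptors, 5 of 9 were tested, 1 rose and 4 did not pass. Ptger3, the prostaglandin E2 receptor that lowers cyclic AMP, rose from 119.5 ± 11.9 to 163 ± 13.3 CPM (0.45, adjusted p = 0.0269). Ptgir, the prostacyclin receptor that restrains platelets, stood at 21.0 ± 4.96 and 19.3 ± 1.38 CPM (-0.12, adjusted p = 0.683). Of the other TRPC channels and the STIM and ORAI proteins of store-operated calcium entry, 6 of 11 were tested and 1 rose, Orai2 (0.49, adjusted p = 0.0167). Trpc1, at 22.1 ± 1.46 and 21.4 ± 1.26 CPM, was the other TRPC gene that could be tested, with a log2 fold change of -0.04 (adjusted p = 0.830). The calls of Ptger3 and Orai2 were each lost without LUC library 1 or any 1 Arid3a-FLAG library (adjusted p up to 0.147 and 0.0860).

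Of 19 genes listed as receptors for other platelet agonists and their partners, 18 were tested, 2 rose, 2 fell and 14 did not pass. Clec1b, the podoplanin receptor CLEC-2, rose by 0.81 (adjusted p = 0.0138), and Tspan9, a tetraspanin of platelets, by 0.96 (0.00932). The chemokine receptor Cxcr4 fell by 0.99 (0.00105) and the inhibitory Fc receptor Fcgr2b by 1.38 (0.00473). Fcgr2b is counted here as listed, and whether platelets carry it was not examined. The number of rises was 0 on leaving out Arid3a-FLAG 1, 1 on leaving out LUC 1 or Arid3a-FLAG 2, and 4 on leaving out LUC 2. Both falls held in all 6 of these fits.

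Downstream of the receptors, 5 of 32 tested genes of the calcium and integrin list rose, against 3.43% of all tested genes. In the G protein list the Gi subunit gene Gnai1 fell. That is 1 of 30 tested genes, near the 3.87% of all tested genes that fell. The other Gi family genes of the list, Gnai2, Gnai3 and Gnaz, did not pass (adjusted p = 0.350, 0.848 and 0.0643). With 1 library left out, their log2 fold changes ran from -0.19 to -0.09, from -0.02 to 0.11 and from 0.42 to 0.67. Of 32 G protein subunits and regulators, 30 were tested and 1 fell, Gnai1, a Gi alpha subunit (-2.23, from 31.9 ± 6.30 to 6.78 ± 2.02 CPM, adjusted p = 0.000415). In the edgeR test of the 6 libraries none rose (2 at an unadjusted p under 0.05), while 1 rose in DESeq2 and 1 with no filter on low counts, and 6 fell without LUC library 2. There were 2 falls without Arid3a-FLAG library 3, and 2 genes rose without LUC library 3. Of 35 phospholipase, calcium and integrin activation genes, 32 were tested, 5 rose and 27 did not pass. They were Prkcq (0.83, adjusted p = 0.000806) and Prkca (0.56, 0.00511), both protein kinase C genes, the integrin chain Itgb3 (0.97, 0.00103), Rap1gap2 (1.72, 0.0126), a brake on the integrin switch RAP1, and talin, Tln1 (0.45, 0.0301). There were 3 rises without Arid3a-FLAG library 2 and 11 without LUC library 2, where 3 genes fell. Genes of this list were also lower in DESeq2 (2) and with no filter on low counts (3). Rasgrp1 and Rasgrp2, activators of small GTPases, were both listed at 0 in all 6 libraries. Whether this reflects their RNA level or how reads were assigned was not tested.

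The cyclic nucleotide pathway, which restrains platelet activation, included the rising genes Prkg1 and Adcy9. Of 19 genes, 17 were tested, 7 rose (against 3.43% of all tested genes) and 10 did not pass, with a median log2 fold change of 0.29. Without LUC library 2, 9 rose and 1 fell. Prkg1, the cyclic GMP-dependent kinase, stood at 52.7, 51.9 and 55.8 CPM in the LUC libraries. In the Arid3a-FLAG libraries it reached 106.6, 92.8 and 93.1 CPM, above all of those. Its log2 fold change was 0.87 (SE 0.09, adjusted p = 0.000672). Adcy9, an adenylyl cyclase, rose from 2.89 ± 0.975 to 12.6 ± 2.12 CPM, with an adjusted p of 0.00087 (log2 fold change 2.11, SE 0.24). The other 5 were the nitric oxide receptor chains Gucy1a1 and Gucy1b1, the protein kinase A subunit Prkar2b, the adenylyl cyclase Adcy5 and the cyclic GMP phosphodiesterase Pde5a. With LUC 1 left out 4 rose, and with Arid3a-FLAG 1 or 2 left out 3 rose. Of 18 genes that supply or remove the agonists, 15 were tested and 3 rose: Ptgs1, the cyclooxygenase that starts thromboxane synthesis (0.41, adjusted p = 0.0272), Slc35d3 (0.49, 0.0324), a gene of platelet dense granules, which store ADP, and the transporter Abcc4 (0.39, 0.0368). None of the 3 passed without LUC library 1 or any 1 Arid3a-FLAG library, nor did Abcc4 without LUC library 3, and without LUC library 2, 5 rose and 2 fell.

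**Figure D4:**
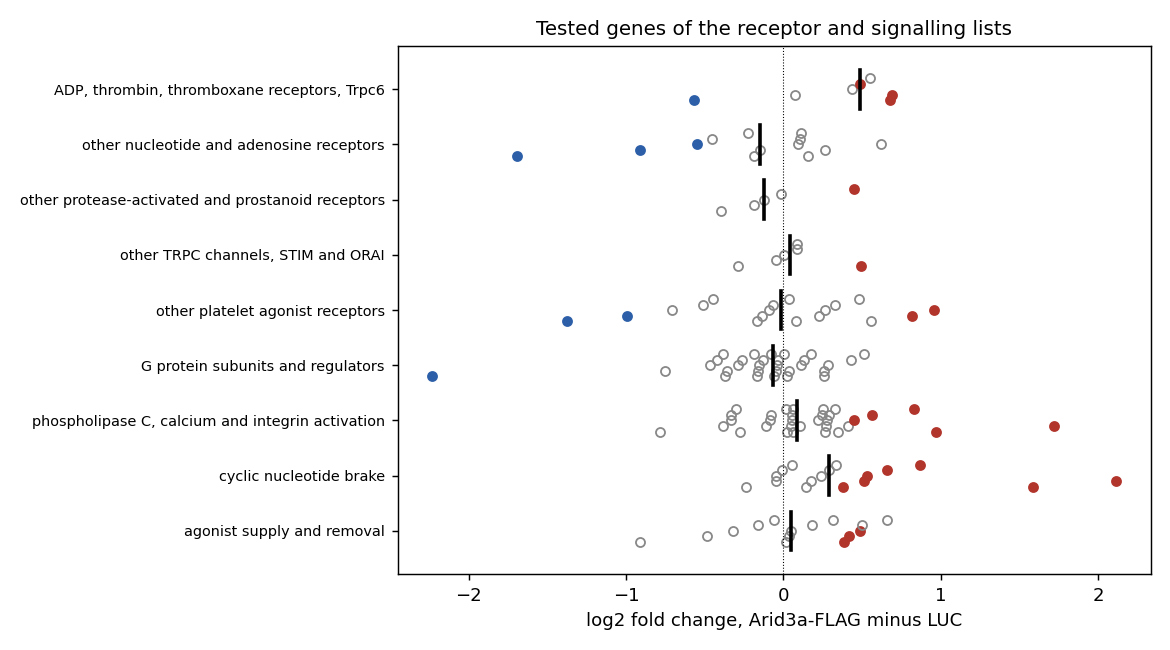
Log2 fold change (horizontal axis, Arid3a-FLAG minus LUC) of each tested gene in the receptor and signalling lists, filled red or blue where it passed an adjusted p of 0.05, with the list median as a black bar. The 7 tested agonist receptor genes have a median of 0.48 and the cyclic nucleotide genes 0.29, while the other lists drawn lie between -0.15 and 0.09. Cell type marker lists are not drawn.

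Markers of other cells moved with the receptors in some cases, and their part in the values above was not tested. The background was 3.43% of all tested genes higher and 3.87% lower. Of 14 mast cell and basophil markers, 11 were tested, 3 fell and 8 did not pass, and their sum was 3343 to 3905 CPM (LUC) and 2437 to 3281 CPM (Arid3a-FLAG). Without Arid3a-FLAG library 3, 6 fell, as with no filter on low counts, and 5 fell in DESeq2, in limma-voom and with the replicate block. Of 11 endothelial markers, 5 were tested, 1 rose and 1 fell. Their sum was 244.6 to 284 CPM and 222 to 244 CPM, and the defining genes Cdh5 and Cldn5 were at 0 in all 6 libraries. Of 16 monocyte, macrophage and microglia markers, 10 were tested and 1 rose. Their sum was 57.5 to 68.7 CPM and 63.0 to 81.5 CPM, with Sall1 at 0. Of 12 smooth muscle and stromal markers, 2 were tested and 1 fell, with sums of at most 12.2 CPM and with Pdgfra, Col3a1, Dcn and Lum at 0. Of 13 erythroid markers, 11 were tested, 3 rose and 1 fell, and their sum was 310.3 to 365 CPM (LUC) and 454 to 585 CPM (Arid3a-FLAG), and 6 rose without LUC library 2 or with no filter, and 5 in DESeq2. Of 12 neutrophil markers, 3 were tested and 2 fell (20.8 to 23.4 against 10.6 to 23.9 CPM), with Ly6g at 0. Of 11 lymphoid markers, 2 were tested and both fell (30.2 to 42.0 against 6.79 to 8.29 CPM). Of 9 hepatocyte markers, 1 was tested and did not pass (20.3 to 27.2 against 16.3 to 20.4 CPM), with Ttr, Fgb, Serpina1a and Hnf4a at 0. Calls in these small sets depended on single libraries. On leaving out LUC 1, Arid3a-FLAG 1 or Arid3a-FLAG 2, 0 neutrophil, 0 stromal and 1 lymphoid marker fell. The endothelial fall was lost without LUC 3 or any 1 Arid3a-FLAG library, the stromal fall also without LUC 3, and 2 monocyte markers rose without LUC 3. With no filter, in DESeq2 and with the block, 2 monocyte markers rose and 1 fell.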

How the data were processed

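RNA was sequenced in 6 libraries, 3 with LUC and 3 with Arid3a-FLAG. The authors deposited read counts per gene, as whole numbers without scaling. Per the submitters' processing notes, fastp, HISAT2 2.0.5 and featureCounts were used with the build mm10; for the annotation release and the strand setting, nothing was given in the sources used. Construct reads entered neither library sizes nor tests.

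GENCODE M21 (GRCm38) gave symbols, positions and exon lengths. It lacked 95 identifiers, which held 0.0107% to 0.0170% of the counts of a library. Genes were kept by filterByExpr and scaled by TMM. The two-sided test was the quasi-likelihood F test of edgeR 4.0.16 in R 4.3.3 (estimateDisp, glmQLFit, glmQLFTest), with group alone in the model, Benjamini-Hochberg adjustment over 13631 genes and a threshold of 0.05. SE is the log2 fold change over the square root of F. CPM used TMM-scaled library sizes, and per kb values used the union of exons. The p-values measure the spread between these libraries, which may be technical.

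The genes, lists, markers and motifs were chosen with earlier results of these data known. In addition to the 8 receptor genes, the text names in each list up to 2 genes with the smallest p in each direction, overlapping genes and nearest neighbours, and the 3 most similar genes. Other list genes that passed, P2ry14, Ptgir, Trpc1, P2ry13, Gnai2, Gnai3, Gnaz and genes at 0 were named after their values were seen. Promoters are from RefSeq, with 9 windows for the 8 genes. A neighbouring gene and a signalling list are not reported here. Alternatives were other scalings and filters, DESeq2 1.42.0, limma-voom (limma 3.58.1), a replicate block, each library left out, and other lengths.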

Additional observations from a re-analysis of the deposited data

How the results depend on the processing

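All 7 tested receptor genes kept their direction under every alternative that could test them; Tbxa2r could not be tested with at least 5 CPM in 3 libraries. With no filter on low counts 869 genes were higher and 1076 lower, and DESeq2 called 771 higher. With 1 library left out, 115 to 1191 genes were higher and 118 to 1095 lower, and 0 to 4 receptor genes were higher and 0 to 1 lower. The fall of P2ry1 did not pass with RLE size factors (-0.56, adjusted p = 0.0507), at least 5 CPM in 3 libraries (-0.56, 0.0593), limma-voom (-0.56, 0.0566) or without the 20 most abundant genes (-0.55, 0.0569), which left 0 receptor genes lower, and the cause was not tested. F2rl3 passed with no filter on low counts (0.45, adjusted p = 0.00539) and in DESeq2 (0.45, 0.0249). With the replicate number as a block, F2rl3 passed (0.45, adjusted p = 0.0494) and P2ry1 did not (-0.55, 0.0512), so that 0 receptor genes were lower, and 410 genes were higher and 530 lower in all. Deviations from the group mean correlated at -0.103, -0.115 and 0.125 between samples with the same number. Not every library correlated best with its own number. With 3 libraries per group, these values cannot decide whether the numbers pair the libraries. With 1 library left out, log2 fold changes ran from 0.46 to 0.55 for P2rx1, from -0.70 to -0.42 for P2ry1, from 0.60 to 0.83 for F2r, from 0.32 to 0.54 for F2rl3 and from 0.56 to 0.82 for Trpc6. With edgeR's newer quasi-likelihood option, added after seeing the data because the older option proved to be the one already used, 491 genes were higher and 551 lower. In the lists, DESeq2 called 5 G protein genes lower, 8 calcium and integrin genes higher and 5 supply genes higher (also 5 with no filter). The G protein falls numbered 3 with upper quartile factors, 6 with no filter, and 2 in limma-voom and with the block. In the list of nucleotide receptors and relatives, 1 gene was lower with at least 5 CPM in 3 libraries. The longest transcript in place of the exon union raised Trpc6 to 7.12 CPM per kb with LUC and 11.4 CPM per kb with Arid3a-FLAG. Depth limits Tbxa2r, at 95 and 135 counts per group, and P2ry12, at 0 and 4.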
